A study of Drosophila melanogaster with 24 samples.

Results

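Cuticle protein genes, whose products form the exoskeleton of the fly together with chitin, were examined in whole adults of Drosophila melanogaster lines selected for locomotor reactivity. A gene was taken as a cuticle protein gene when a probe set of the array had exactly 1 annotated symbol and that symbol began with Cpr and a number, Lcp, Ccp84, Edg or Twdl, or was Pcp or Acp65Aa. By this rule 105 genes were on the array, of 11982 genes that had a probe set with 1 symbol. They comprised 66 Cpr genes, 24 Tweedle (Twdl) genes, 7 Lcp genes, 3 Ccp84 genes, 3 Edg genes, Pcp and Acp65Aa. Where several probe sets matched a gene, the one with the highest mean over the arrays stood for it, and Cpr47Ef and Lcp65Aa had another probe set besides.

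Artificial selection on the response to a mechanical stimulus had produced High (H) and Low (L) groups beside an unselected Control (C) group, each kept as 2 replicate lines that descended from 1 outbred base population of crossed wild-type isofemale lines. Flies were collected at generation 25, and every sample held 12 virgin adults of 1 sex, 3 to 7 days old, by the same age range for all samples. Each line gave 2 samples of females and 2 of males, 1 sample per array, so that a group had 8 arrays, each sex of a group 4, and the series 24. The lines carried no transgene and received no drug. They differed in selection history, and a line is a single closed population. RNA came from the whole body, so fewer cells of a type and less RNA per cell cannot be told apart.

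The insect cuticle is secreted by the epidermis as layers of chitin fibres embedded in proteins, and is then hardened and darkened by tanning enzymes. The Cpr proteins carry the Rebers and Riddiford consensus, a motif that binds chitin, and the Tweedle proteins form a separate cuticular family that was named after a mutant with a changed body shape. Lcp, Pcp and Acp65Aa were named for the larval, pupal and adult cuticle in which they were found, the Edg genes for their dependence on ecdysone, and most of these genes are known to be used in bursts around a molt. Adults deposit further cuticle during the first days after eclosion.

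The values are MAS5 Signal intensities, and all differences are given on the log2 scale, as the group named first minus the other. The 12 arrays of females had a median over all probe sets of 93 to 117.5 and those of males one of 143.2 to 157.7. Yolk protein genes and accessory gland genes followed the sex in the labels on every array, with summed Signals of the 3 yolk protein genes of at least 44107 in females and at most 303 in males. Tests were run where the median over 24 arrays reached a Signal of 75, which 11439 of 18769 probe sets did. Replicate samples of each line and sex supply the error, and the variation among lines of a group is not part of it, so each p-value compares these lines.

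Most cuticle protein genes were at a low Signal in these adults. Of the 105 genes, 32 (30.48%) reached a median Signal of 75, against 60.95% of all probe sets, and 73 did not. Those tested were 26 of 66 Cpr genes, 5 of 24 Tweedle genes and Acp65Aa, while no Lcp, Ccp84 or Edg gene was among them, nor Pcp. The genes tested were Acp65Aa, Cpr100A, Cpr47Ea, Cpr47Eb, Cpr47Ee, Cpr47Ef, Cpr49Ab, Cpr49Ae, Cpr49Ah, Cpr51A, Cpr62Bb, Cpr62Bc, Cpr64Ab, Cpr64Ad, Cpr65Au, Cpr66Cb, Cpr66D, Cpr67B, Cpr67Fb, Cpr72Eb, Cpr72Ec, Cpr73D, Cpr76Bd, Cpr92A, Cpr92F, Cpr97Ea, Cpr97Eb, TwdlC, TwdlH, TwdlK, TwdlT and TwdlY. Of these, 14 were at or above 75 on all 24 arrays. Below a median of 75 but at or above it on at least 1 array were 28 genes, namely Ccp84Ae, Cpr11B, Cpr12A, Cpr30F, Cpr31A, Cpr35B, Cpr47Ec, Cpr47Eg, Cpr49Ag, Cpr50Ca, Cpr56F, Cpr5C, Cpr60D, Cpr65Aw, Cpr65Ea, Cpr67Fa1, Cpr76Bc, Cpr78Ca, Cpr78Cc, Cpr78E, Lcp65Aa, Lcp65Ac, Pcp, TwdlG, TwdlM, TwdlP, Twdlalpha and Twdlbeta. The other 45 were under 75 on every array, namely Ccp84Ac, Ccp84Ag, Cpr11A, Cpr23B, Cpr30B, Cpr47Ed, Cpr49Aa, Cpr49Ac, Cpr49Ad, Cpr49Af, Cpr50Cb, Cpr62Ba, Cpr64Aa, Cpr64Ac, Cpr65Av, Cpr65Az, Cpr65Eb, Cpr65Ec, Cpr67Fa2, Cpr72Ea, Cpr76Ba, Cpr76Bb, Cpr78Cb, Edg78E, Edg84A, Edg91, Lcp65Ad, Lcp65Ae, Lcp65Af, Lcp65Ag3, Lcp9, TwdlB, TwdlD, TwdlE, TwdlF, TwdlL, TwdlN, TwdlO, TwdlQ, TwdlR, TwdlS, TwdlV, TwdlW, TwdlX and TwdlZ. All 3 Edg genes and 5 of the 7 Lcp genes, which include larval cuticle proteins, belonged to this last set. At the limit, the tested genes of lowest median Signal were Cpr92A (76.8), Cpr47Eb (78.5) and Cpr72Eb (79.7). The untested genes of highest median were Twdlalpha (74.8), Cpr49Ag (73.8) and Cpr60D (72.8).

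**Figure D1:**
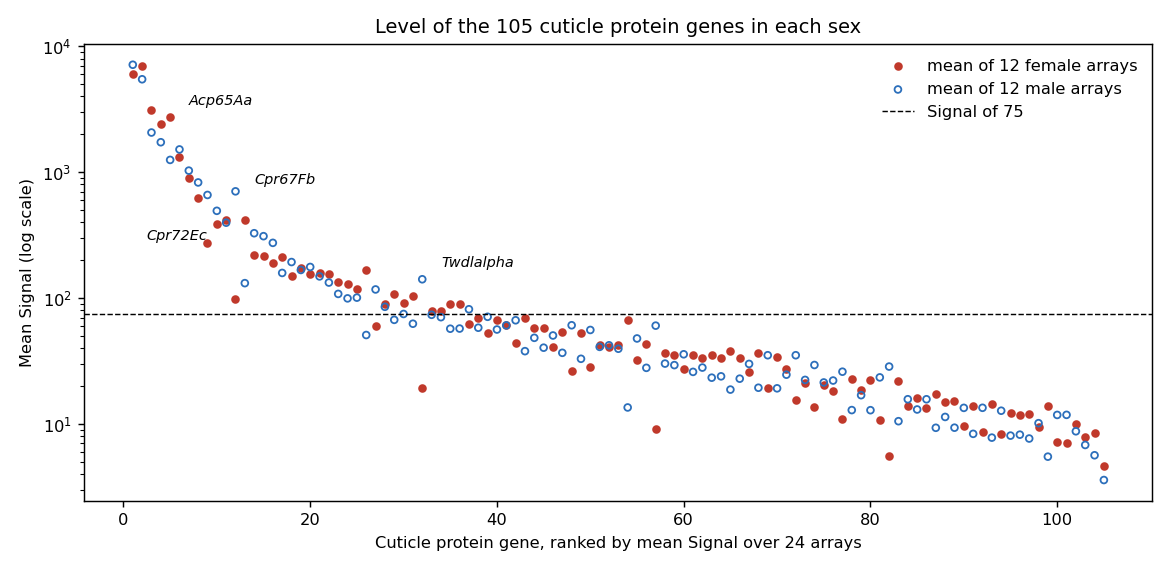
Mean Signal (log scale) of the 105 cuticle protein genes over 12 female arrays (filled) and 12 male arrays (open), ordered by mean Signal over 24 arrays, with the Signal of 75 as a dashed line. A few genes lie above 1000 and most lie below the line, and Cpr67Fb and Twdlalpha are higher in males.

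A few genes carried most of the Signal. The probe sets of 6 genes had a mean Signal of at least 1000, and those of 8 a mean of at least 500. Cpr65Au was at 5986 ± 1013 in females and 7147 ± 1104 in males (SD, n = 12 arrays), the least variable of the 6 relative to its mean. Cpr49Ae was at 6953 ± 3339 and 5479 ± 2996, and Acp65Aa, the adult cuticle protein, at 2756 ± 1833 and 1252 ± 1286 in the same order. The SD of Acp65Aa in males was thus as large as its mean. Cpr49Ab, Cpr67B and Cpr92F had mean Signals over all arrays of 2594, 2084 and 1419. Signal depends on the probes as well as on the transcript, so these values do not rank transcript levels between genes.

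Many of the genes lie side by side in the genome. In the RefSeq gene order, 75 of the 105 genes stood in 18 runs of neighbouring cuticle protein genes with at most 1 other protein-coding gene between them, and 21 of the 75 were tested. In 6 of the 18 runs no gene was tested. The longest run, from Lcp65Ag3 to Cpr65Az on 3L, has 18 annotated genes, of which 11 were on the array and only Cpr65Au and Acp65Aa were tested. Its other 9 genes on the array had median Signals from 6.15 to 61.6, that of Lcp65Aa. By chromosome arm, 14 of 40 genes on 3L, 9 of 28 on 3R, 8 of 22 on 2R, 1 of 8 on X and 0 of 7 on 2L were tested.

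Among the 6 lines, the share of the genes that differed beyond the spread between samples was near that of all probe sets. A line effect at an adjusted p under 0.001 was called by limma in 2 of 32 genes (6.25%), against 4.76% of all probe sets tested. They were Cpr72Ec (adjusted p = 1.49e-05) and Cpr67B (adjusted p = 0.000595), and Cpr66D fell just short (adjusted p = 0.00106). Cpr72Ec alone remained without High line 1, Low line 2 or Control line 1, and also when any of 13 of the 24 arrays was left out. For the interaction between line and sex, limma called 0 of 32 genes, against 0.0437% of all probe sets, with 2 at an unadjusted p under 0.05 and 1 gene called in a factorial analysis of the linear Signal.

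Cpr72Ec, a member of the Cpr family on 3L (probe set 1626740_at), was higher in H than in C and L lines in both sexes. In H females its Signal was 508 and 843 in line 1 and 794 and 919 in line 2, and in H males it was 901 and 862 in line 1 and 1717 and 928 in line 2. In C females it was 298 and 244 in line 1 and 194 and 338 in line 2, and in C males 194 and 205 in line 1 and 123 and 206 in line 2. In L females it was 35.8 and 77.1 in line 1 and 274 and 138 in line 2, and in L males 48.1 and 12 in line 1 and 408 and 316 in line 2. Every H array lay above every C and every L array of both sexes, whereas the ranges of the C and L arrays overlapped. The lowest arrays were those of Low line 1, 3 of which were under a Signal of 75, while the arrays of Low line 2 were in the range of the C arrays or above it.

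The difference of H and L in Cpr72Ec was 3.20 (SE 0.28, adjusted p = 4.88e-06) by limma, or 9.17-fold (95% interval 2.59 to 3.81 on the log2 scale). It was 2.89 (SE 0.40, adjusted p = 0.000427) in females and 3.51 (SE 0.40, adjusted p = 0.000128) in males, and these did not pass the test of a difference between the sexes, at -0.62 (SE 0.57, adjusted p = 0.652). H also exceeded C, by 2.04 (SE 0.28, adjusted p = 0.000388), and C exceeded L, by 1.16 (SE 0.28, adjusted p = 0.014). With line as a random block the call of H and L was kept (adjusted p = 0.00476), while those of H and C and of C and L were lost (adjusted p = 0.103 and 0.383). The size of the differences from L rested on Low line 1. Mean log2 Signal was 9.57 and 10.02 in the 2 High lines, 7.86 and 7.66 in the 2 Control lines, and 5.15 and 8.04 in the 2 Low lines, a difference between Low lines of -2.89 (SE 0.40, adjusted p = 0.00116). Without Low line 1 the difference of H and L was 1.75 (adjusted p = 0.000702) and that of C and L -0.29 (adjusted p = 0.476). That of C and L was 1.06 (adjusted p = 0.105) without Control line 1.

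The neighbours of Cpr72Ec did not share this pattern. Cpr72Eb and Cpr72Ea stand beside it in the gene order. Cpr72Eb had Signals of 69.3 to 100.2 in H, 50.3 to 146 in C and 53.3 to 132 in L lines, and a difference of H and L of -0.03 (SE 0.18, adjusted p = 0.94), 95% interval -0.41 to 0.35. Cpr72Ea was under 75 on all 24 arrays, with a highest Signal of 73.8.

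**Figure D2:**
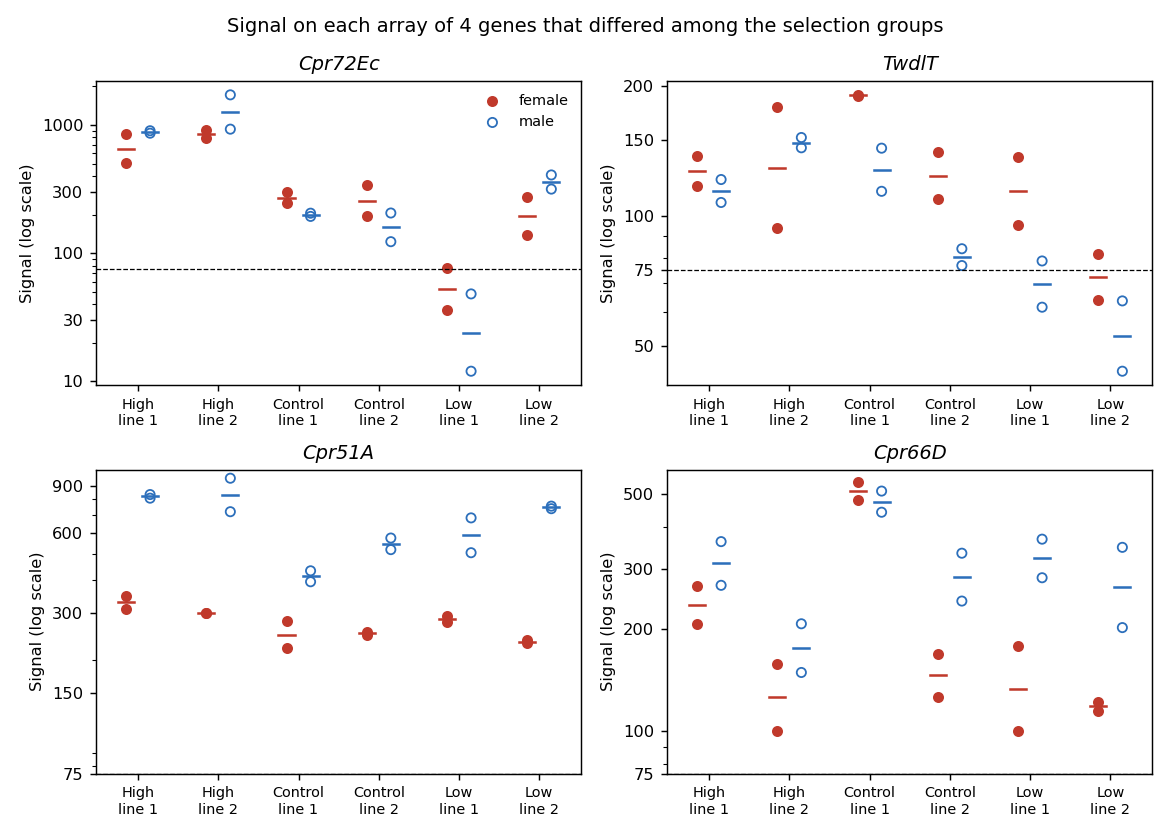
Signal (log scale) of Cpr72Ec, TwdlT, Cpr51A and Cpr66D on each of the 24 arrays, by line, with females filled, males open, the mean log2 Signal of each line and sex as a bar and a Signal of 75 dashed. The High lines lie above all others in Cpr72Ec, the Low lines are lowest in TwdlT, Cpr51A is higher in males, and Control line 1 is the highest line in Cpr66D.

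Between H and L lines 3 of the 32 genes were called higher in H, against 7.85% of all probe sets, and 0 were called lower in H, against 7.89%, so that 9.38% were called in either direction against 15.7% of all probe sets. At an unadjusted p under 0.05, limma had 9 genes higher and 0 lower in H. Besides Cpr72Ec they were TwdlT, of the Tweedle family, and Cpr51A. Their differences were smaller than that of Cpr72Ec. The error in these tests is the spread between samples of a line, and with the means of the 6 lines as the samples limma called 0 of 32 genes, with 7 at an unadjusted p under 0.05. With line as a random block the count was 2, namely Cpr72Ec and TwdlT.

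TwdlT (probe set 1637562_at) was lower in L than in H and C lines. In H females its Signal was 138 and 118 in line 1 and 179 and 93.7 in line 2, and in H males 122 and 108 in line 1 and 152 and 144 in line 2. In C females it was 189.8 and 191 in line 1 and 141 and 109.6 in line 2, and in C males 144 and 114 in line 1 and 76.9 and 84.1 in line 2. In L females it was 95.5 and 137 in line 1 and 81.7 and 64 in line 2, and in L males 61.6 and 78.8 in line 1 and 63.7 and 43.8 in line 2. In males every H array lay above every L array, while in females the ranges overlapped, and 4 of the 8 L arrays were under 75. The difference of H and L was 0.80 (SE 0.14, adjusted p = 0.00126), that of C and L 0.75 (SE 0.14, adjusted p = 0.00258) and that of H and C 0.05 (SE 0.14, adjusted p = 0.873). Within males H and L differed by 1.10 (SE 0.20, adjusted p = 0.00401) and within females by 0.50 (SE 0.20, adjusted p = 0.102). The difference between the sexes was -0.60 (SE 0.28, adjusted p = 0.321), which did not pass. Without Low line 2 the difference of H and L was 0.53 (adjusted p = 0.0662), that of C and L 0.48 (adjusted p = 0.0947) and that of H and L males 0.90 (adjusted p = 0.0592). Without Control line 1 that of C and L was 0.43 (adjusted p = 0.164).

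Cpr51A (probe set 1638869_at) was higher in H than in both C and L lines and differed more between the sexes than among the lines. In H females its Signal was 310.5 and 348 in line 1 and 301 and 299.9 in line 2, and in H males 808 and 833 in line 1 and 719 and 959 in line 2. In C females it was 222 and 279.6 in line 1 and 255 and 249 in line 2, and in C males 393 and 432 in line 1 and 518 and 573 in line 2. In L females it was 292 and 278 in line 1 and 238 and 231 in line 2, and in L males 681 and 505 in line 1 and 738 and 754 in line 2. All 4 H female arrays lay above all L female arrays, while in males the lowest H array lay below the 2 arrays of Low line 2. All H arrays lay above all C arrays within each sex. The difference of H and L was 0.30 (SE 0.08, adjusted p = 0.0171), that of H and C 0.56 (SE 0.08, adjusted p = 0.000343), and C was lower than L with a difference of -0.26 (SE 0.08, adjusted p = 0.0335). The call between H and L was lost without High line 1, at 0.27 (adjusted p = 0.113), without Low line 2, at 0.32 (adjusted p = 0.0785), and with line as a random block (adjusted p = 0.237). With that block the call between H and C was kept (adjusted p = 0.0232). That between C and L was lost without Low line 1, at -0.28 (adjusted p = 0.0514), without Low line 2, at -0.25 (adjusted p = 0.166), and without Control line 1, at -0.16 (adjusted p = 0.326).

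Of the 32 genes, 4 (12.5%) were called between H and C, against 11.2% of all probe sets, and 5 (15.6%) between C and L, against 15.5%. The 2 comparisons share the C arrays. Cpr72Ec, Cpr51A and Cpr67B were higher in H than in C, against 4.36% of all probe sets, and Cpr66D was lower, against 6.82%. Cpr72Ec, TwdlT, Cpr66D and Cpr47Ef were higher in C than in L, against 9.38%, and Cpr51A was lower, against 6.15%. With line as a random block 1 gene, Cpr51A, was called between H and C and 0 between C and L, so the calls of Cpr66D, Cpr67B and Cpr47Ef were lost as well. In Cpr66D and Cpr67B the difference lay between the replicate lines of a group as much as between the groups.

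Cpr66D was highest in Control line 1. In C females its Signal was 542 and 481 in line 1 and 126 and 169 in line 2, and in C males 442 and 511 in line 1 and 242 and 335 in line 2. In H females it was 207 and 268 in line 1 and 100.5 and 158 in line 2, and in H males 269 and 362 in line 1 and 208 and 149 in line 2. In L females it was 100.3 and 178 in line 1 and 114 and 122 in line 2, and in L males 368 and 284 in line 1 and 202 and 349 in line 2. The 4 arrays of Control line 1 lay above all other arrays of the series, whereas Control line 2 lay within the range of the H and L lines. H was lower than C with a difference of -0.66 (SE 0.16, adjusted p = 0.0188), and C exceeded L by 0.72 (SE 0.16, adjusted p = 0.00907). The 2 Control lines differed by 1.27 (SE 0.23, adjusted p = 0.00525) and the 2 High lines by 0.87 (SE 0.23, adjusted p = 0.0445). Without Control line 1 the differences of H and C and of C and L were -0.02 (adjusted p = 0.966) and 0.09 (adjusted p = 0.844). That of H and C was -0.22 (adjusted p = 0.524) without High line 2, and that of C and L 0.61 (adjusted p = 0.0759) without Low line 2.

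Cpr67B, 1 of the 6 genes with a mean Signal of at least 1000, was lowest in Control line 1 and Low line 2. In C females its Signal was 1990.1 and 1562 in line 1 and 2409.9 and 3323 in line 2, and in C males 1076 and 1050.3 in line 1 and 2069 and 1648 in line 2. In L females it was 2990.2 and 2870.0 in line 1 and 1461 and 1542 in line 2, and in L males 2316 and 2358 in line 1 and 1228 and 1638 in line 2. In H females it was 2590.3 and 3196 in line 1 and 2994 and 2327 in line 2, and in H males 1761 and 1858 in line 1 and 2065 and 1699 in line 2. Mean log2 Signal was 11.16 and 11.12 in H, 10.42 and 11.16 in C and 11.35 and 10.51 in L lines. Low line 1 exceeded Low line 2 by 0.84 (SE 0.14, adjusted p = 0.00383), and Control line 1 was lower than Control line 2, with a difference of -0.74 (SE 0.14, adjusted p = 0.00588). The difference of H and C was 0.35 (SE 0.10, adjusted p = 0.0331). Without Control line 1 it was -0.02 (adjusted p = 0.94), and it was also lost without High line 1, High line 2 or Low line 1, at 0.33 (adjusted p = 0.122), 0.37 (adjusted p = 0.0686) and 0.35 (adjusted p = 0.0558).

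Cpr47Ef was higher in C than in L lines by probe set 1636853_at, and the values of its other probe set are not given here. Its Signal in C females was 336 and 337 in line 1 and 288 and 217 in line 2, and in L females 193 and 278 in line 1 and 128 and 91.2 in line 2. In C males it was 405 and 244 in line 1 and 388 and 456 in line 2 and in L males 299.6 and 279.8 in line 1 and 216 and 349.5 in line 2, with overlapping ranges in both sexes. The difference of C and L was 0.62 (SE 0.15, adjusted p = 0.0138), and without Low line 2, Control line 1 or Control line 2 it was 0.33 (adjusted p = 0.27), 0.62 (adjusted p = 0.0544) and 0.62 (adjusted p = 0.0509). Between the lines of a group, limma called 1 of 32 genes in High, against 5.36% of all probe sets, 3 in Low, against 3.87%, and 2 in Control, against 5.57%. These were Cpr66D in High, Cpr72Ec, Cpr67B and Cpr65Au in Low, and Cpr66D and Cpr67B in Control. Cpr65Au, the gene of highest mean Signal, was higher in Low line 1 than in Low line 2 by 0.55 (SE 0.13, adjusted p = 0.0322).

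Within a sex, 3 genes were called between H and L females, against 14.5% of all probe sets, and 2 between H and L males, against 5.57%. The difference of H and L differed between the sexes by limma for 0 of 32 genes, against 0.551% of all probe sets, with 3 at an unadjusted p under 0.05 and 0 called on the linear Signal. Cpr72Ec was called in both sexes and TwdlT in males. In females Cpr47Ee and Cpr73D were called as well. Cpr47Ee was at 226 and 215 in line 1 and 225 and 185 in line 2 in H females and 149 and 140.2 in line 1 and 162 and 126 in line 2 in L females, so that all H arrays lay above all L arrays, a difference of 0.56 (SE 0.14, adjusted p = 0.0167). Cpr73D was at 111 and 174 in line 1 and 219 and 191 in line 2 in H females and 123 and 79 in line 1 and 117 and 133 in line 2 in L females, where the ranges overlapped, a difference of 0.60 (SE 0.18, adjusted p = 0.0422). In males the same differences were 0.03 (SE 0.14, adjusted p = 0.992) and 0.09 (SE 0.18, adjusted p = 0.939). With line as a random block both calls were lost (adjusted p = 0.104 and 0.132). The call of Cpr47Ee was also lost without High line 1 or Low line 2, at 0.51 (adjusted p = 0.141) and 0.55 (adjusted p = 0.0844). That of Cpr73D was also lost without High line 2, Low line 1, Low line 2 or Control line 1, at adjusted p-values of 0.361, 0.161, 0.0957 and 0.0571.

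Beyond the genes called, the estimates lay mostly on the side of H. The difference of H and L was above 0 in 27 of the 32 genes, with a median of 0.289, against a median of -0.01 and 47.7% above 0 over all probe sets tested. Both High line means lay above both Low line means in 12 of 32 genes (37.5%, against 19.4% of all probe sets) and below them in 0 (22.3%). The 12 were Cpr72Ec, TwdlT, Cpr51A, Cpr47Ea, Cpr47Ee, Cpr49Ah, Cpr62Bc, Cpr73D, Cpr76Bd, Cpr100A, TwdlC and TwdlH. Every H array lay above every L array in each sex in 1 gene, Cpr72Ec (3.12%, against 1.44%). The median was 0.38 in females and 0.13 in males. Lines of the same group also differed mostly to 1 side. High line 1 minus High line 2 was below 0 in 27 of 32 genes, with a median of -0.337 (-0.026 over all probe sets). Low line 1 minus Low line 2 was above 0 in 24, with a median of 0.23 (-0.018 over all probe sets). For the Control lines 14 were above 0 and 18 below, with a median of -0.089. Genes that share a sample share its error, as the replicate samples described further on show, so these counts are given as a description. Estimates above 0 numbered 25 of 32 after quantile normalization, 28 after median centring within each sex and 20 without Low line 2, where the median was 0.11. The Signal of ovary genes was measured in the same samples. Summed over the 7 tested genes of an ovary and egg shell list (of 18 listed), it was 31831 to 60546 in H, 35333 to 45851 in C and 53017 to 73490.0 in L females, where H and L overlapped. Summed over all 14 of the list on the array, 7 of them under the Signal limit, it was 32049 to 68161 in H, 35499.5 to 72302 in C and 79604 to 109525 in L females, which did not overlap between H and L. In males the sum over the 7 tested genes was 174 to 313 in H and 242 to 336 in L. The summed Signal of 12 accessory gland genes was 90483 to 116274 in H, 91431 to 109829.8 in C and 112591 to 127982 in L males. The part of either tissue in these differences was not tested.

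**Figure D3:**
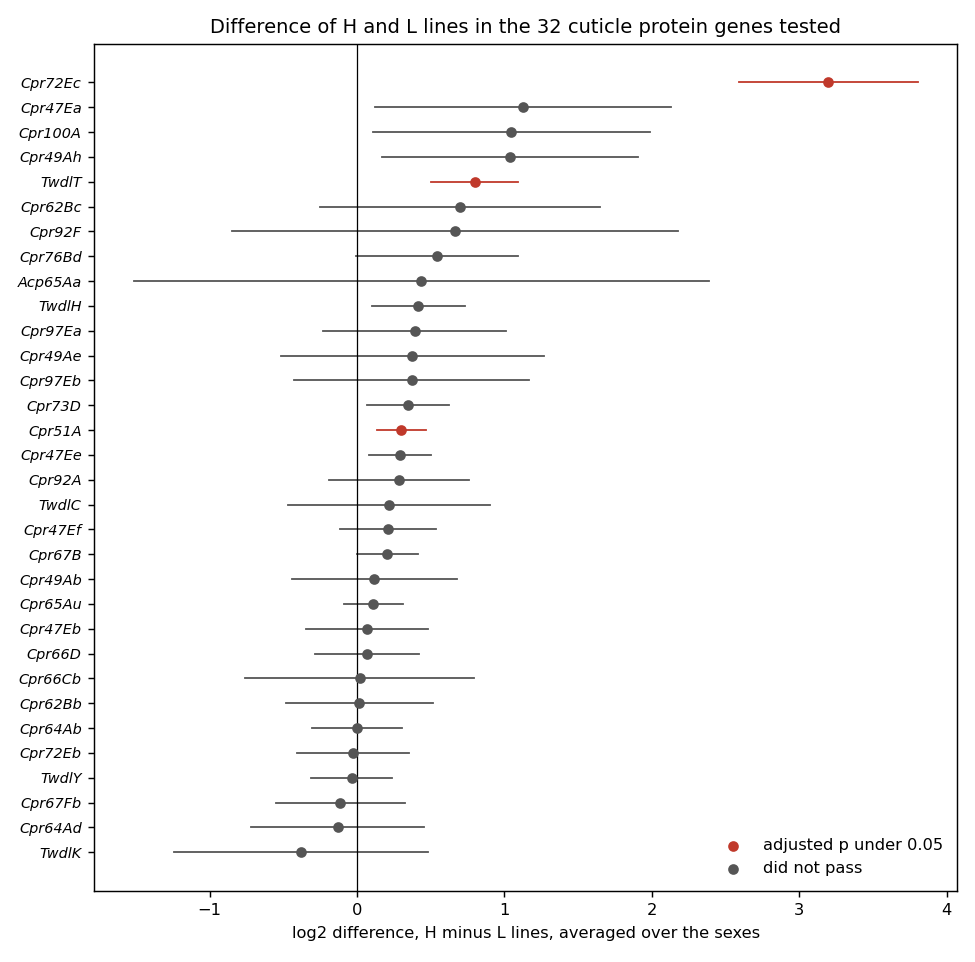
Difference of log2 Signal between H and L lines (H minus L, averaged over the sexes) in the 32 cuticle protein genes tested, with 95% intervals from limma and the genes at an adjusted p under 0.05 in red. Cpr72Ec, TwdlT and Cpr51A passed, 27 of the 32 estimates lie above 0, and the widest interval is that of Acp65Aa.

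Some cuticle protein genes also differed widely between replicate samples of 1 line and sex. Acp65Aa (probe set 1639418_at), a protein of the adult cuticle, had the largest SD between such samples, 1.97 on the log2 scale, of all 11439 probe sets tested. Its 2 samples of males read 1224 and 78.9 in High line 1, 1058 and 4303 in High line 2, 1490.5 and 35.1 in Control line 1, 329 and 1348 in Control line 2, 1941 and 125 in Low line 1 and 292 and 2802 in Low line 2. The 2 samples of females read, in the same order of lines, 6424 and 1645, 5758 and 785, 3390.1 and 1824, 2598 and 2346, 2103 and 4061 and 889 and 1245. Samples of the same line could thus differ by up to 42.5-fold, as in the males of Control line 1. The median pair differed by 4.08-fold. Against this spread the difference of H and L in Acp65Aa was 0.44 (SE 0.91, adjusted p = 0.799), with a 95% interval of -1.52 to 2.39.

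Other cuticle protein genes were high in the same samples as Acp65Aa. Acp65Aa was taken as the reference after its spread was seen, so the counts that follow are a description with no test. Of the 31 other genes tested, Cpr47Ea and Cpr97Eb had their higher Signal in the same sample as Acp65Aa in 12 of the 12 pairs (0.2448% of all probe sets did). In at least 11 pairs this held for 8 genes (1.408% of all probe sets), which added Cpr92F, Cpr62Bc, Cpr49Ae, Cpr49Ah, Cpr76Bd and Cpr62Bb, and in at least 10 for 13 (4.214%), with Cpr100A, Cpr97Ea, Cpr49Ab, Cpr47Ef and Cpr65Au. Next to Acp65Aa the largest spread was that of Cpr92F, whose samples of Control line 1 males read 1487 and 55.2, of High line 1 males 1536 and 170.4 and of High line 2 females 3092 and 478. In Cpr47Ea the same pairs read 188 and 62.6, 143 and 47.9 and 989.8 and 193, and in Cpr49Ae, among the highest of all these genes, 5787 and 1205, 6056 and 2587 and 13050.2 and 2970.1. In each of these 3 pairs the first sample was the higher one in all 4 genes. The replicate with the higher Acp65Aa was number 1 in 7 pairs and number 2 in 5. In males it was number 1 in line 1 and number 2 in line 2 of every group. In females it was number 1 in the High and Control lines and number 2 in the Low lines.

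**Figure D4:**
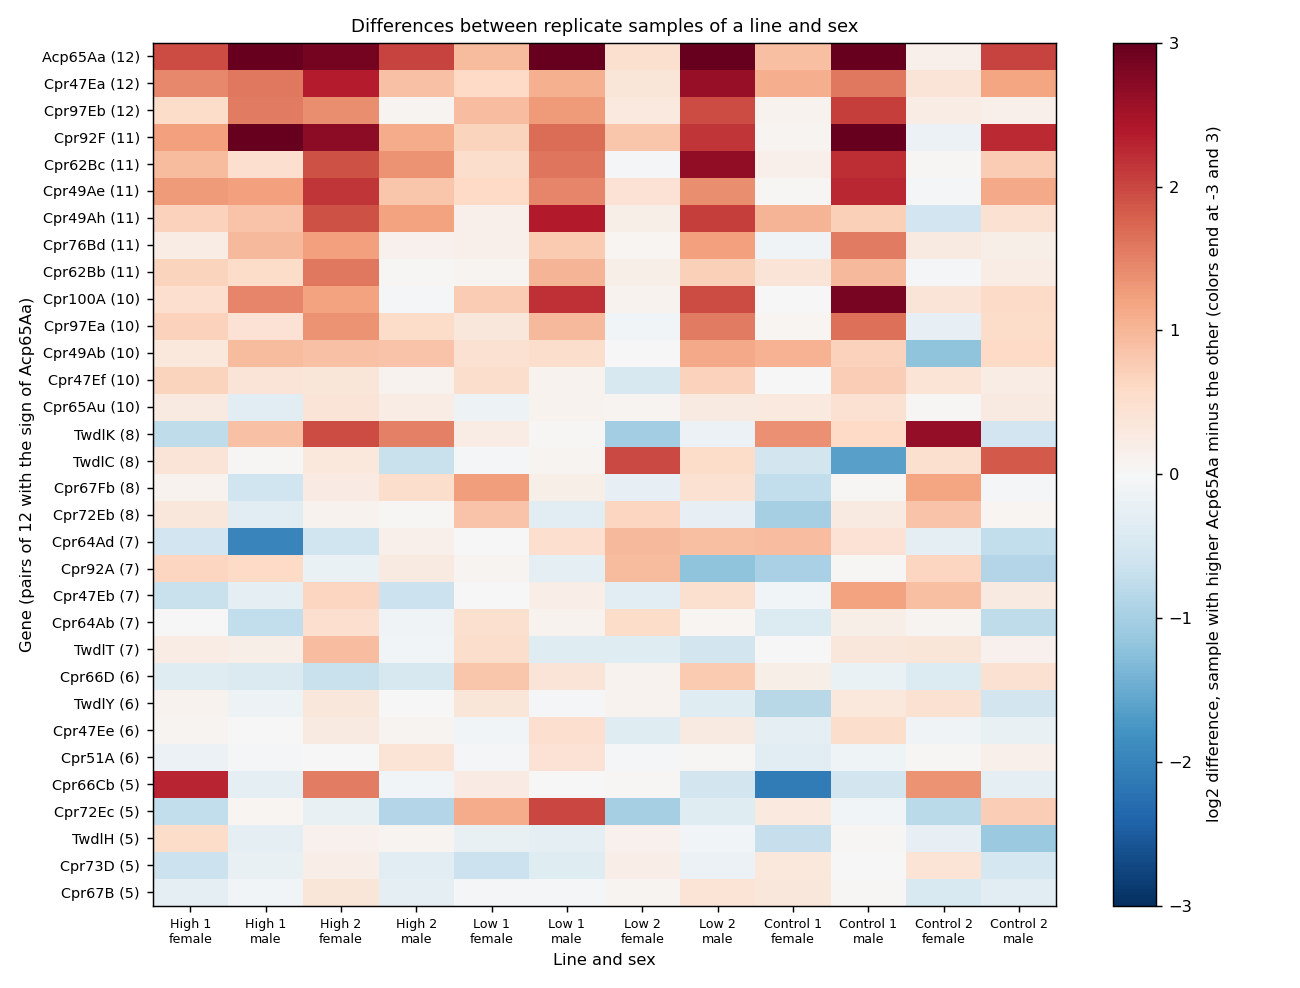
Differences of log2 Signal between the 2 replicate samples of each line and sex (columns) in the 32 cuticle protein genes tested, taken as the sample with the higher Acp65Aa minus the other, with colors ending at -3 and 3. The number beside each gene counts the pairs of 12 with the sign of Acp65Aa, and the genes at the top are red in nearly all columns while Cpr72Ec, Cpr51A and TwdlT are not.

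This spread was a property of many but not all of the genes. The SD between replicate samples had a median of 0.52 over the 32 genes, against 0.19 over all probe sets tested, and 13 of the 32 were above the 90th percentile of all probe sets. The genes called among the selection groups were mostly not those that moved with Acp65Aa. The spread between replicate samples is also the error of these tests, so genes with a large spread were harder to call. This separation is therefore partly built into the test. Cpr72Ec was higher in the same sample in 5 of 12 pairs, Cpr67B in 5, Cpr51A in 6, Cpr66D in 6 and TwdlT in 7, and Cpr47Ef, in 10, was the exception. Of the genes with both High lines above both Low lines, Cpr47Ea, Cpr49Ah, Cpr62Bc, Cpr76Bd and Cpr100A did move with it, and their differences of H and L had adjusted p-values of 0.12, 0.1, 0.323, 0.168 and 0.124. For Cpr47Ea that difference was 1.13 (SE 0.47) and for Cpr100A 1.05 (SE 0.44). Neither passed.

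Genes outside the list were counted in the same way. In at least 10 of 12 pairs the higher Signal was in the same sample as that of Acp65Aa for 5 of 24 tested genes of chitin synthesis and chitin matrix enzymes, 3 of 14 of tanning and 5 of 7 other cuticle and chitin-binding proteins. Over all probe sets tested it was so for 4.214%. Among markers of other tissues it was so for 4 of 12 accessory gland genes, with Acp36DE in 12 pairs, 2 of 12 testis genes, 0 of 7 ovary genes and 0 of 3 yolk protein genes. The summed Signal of the accessory gland list was higher there in 11 of 12 pairs. That sum was 90483 to 127982 in males but only 255 to 491.5 in females. Acp36DE read 2.3 to 64.3 in females, so the female pairs of these genes compare low readings. In males of High line 1 it read 11782 and 11326, a small difference beside that of Acp65Aa. The part of that tissue in the pattern was not tested. The chitinase Cht8 was at the other end, with 2 pairs. The gene y (yellow), which is needed for dark pigment in the cuticle, was higher in the same sample as Acp65Aa in 11 of 12 pairs and read 281 and 23.9 in the males of Control line 1, 442 and 36.2 in those of High line 1 and 8.8 and 184 in those of Low line 2. Its difference of H and L was 2.12 (SE 0.74, adjusted p = 0.0665). The cuticle protein Vajk3 was higher in that sample in 12 pairs, and Vajk2, the chitin-binding protein Gasp, the chitin deacetylases serp, verm and Cda4, the chitinase Cht2 and yellow-e in 11. Lsp2, a larval serum protein and the 1 tested gene of 6 in a list of proteins kept from the larva by newly eclosed flies (3 were on the array), was so in 7 pairs. Its Signal ranged from 75.1 to 966 in females and from 171 to 3784 in males, and it was lower in H than in L with a difference of -1.34 (SE 0.43, adjusted p = 0.0494). Flies were 3 to 7 days old in every sample by the labels, and the part of age within that range was not tested.

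Between the sexes 8 of the 32 genes (25%) differed at an adjusted p under 0.001, against 69.5% of all probe sets tested. Of these 5 were higher in males, against 25.6% of all probe sets, and 3 in females, against 43.9%. Cpr67Fb showed the largest difference. Its lowest, median and highest Signals were 55.5, 90.5 and 158 on the 12 female arrays and 329, 572 and 1615 on the 12 male arrays, which did not overlap, and the difference of males and females was 2.74 (SE 0.17, adjusted p = 4.81e-10), or 6.68-fold. The 2 male samples of Control line 2, at 1615 and 1562, were far above all others. Of its neighbours Cpr67Fa1 and Cpr67Fa2 neither was tested, with highest Signals in males of 119.6 and 50.6.

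Among the genes higher in males Cpr51A was the next, at 222, 279 and 348 in females and 393, 700.0 and 959 in males, again without overlap, a difference of 1.22 (SE 0.06, adjusted p = 7.52e-11). In Cpr66D, Cpr47Ef and Cpr47Ee the ranges of the sexes overlapped, and their differences of males and females were 0.70 (SE 0.13, adjusted p = 0.000198), 0.63 (SE 0.12, adjusted p = 0.000244) and 0.54 (SE 0.08, adjusted p = 1.44e-05). The genes higher in females were Cpr49Ah, Cpr47Ea and Cpr67B. Cpr49Ah was at 81, 152 and 379.5 in females and 8.5, 40.9 and 166 in males, a difference of -1.93 (SE 0.33, adjusted p = 6.86e-05), and most of its male arrays were under 75. Cpr47Ea was at 133, 346 and 989.8 in females and 35.7, 92.6 and 394 in males, a difference of -1.83 (SE 0.38, adjusted p = 0.000419). Both moved with Acp65Aa between replicate samples. Acp65Aa itself, at 785, 2224 and 6424 in females and 35.1, 1141 and 4303 in males, did not pass, at -1.92 (SE 0.74, adjusted p = 0.0271). In Cpr67B the difference was -0.49 (SE 0.08, adjusted p = 4.12e-05). The genes near each other on 2R went both ways, with Cpr47Ea higher in females and Cpr47Ee and Cpr47Ef higher in males. With quantile normalization the male-higher genes numbered 3 and the female-higher ones 11, so the balance of the sexes depends on the scaling. The count was 5 without Control line 2, where Cpr67Fb, Cpr51A, Cpr47Ee, Cpr49Ah and Cpr67B remained.

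**Figure D5:**
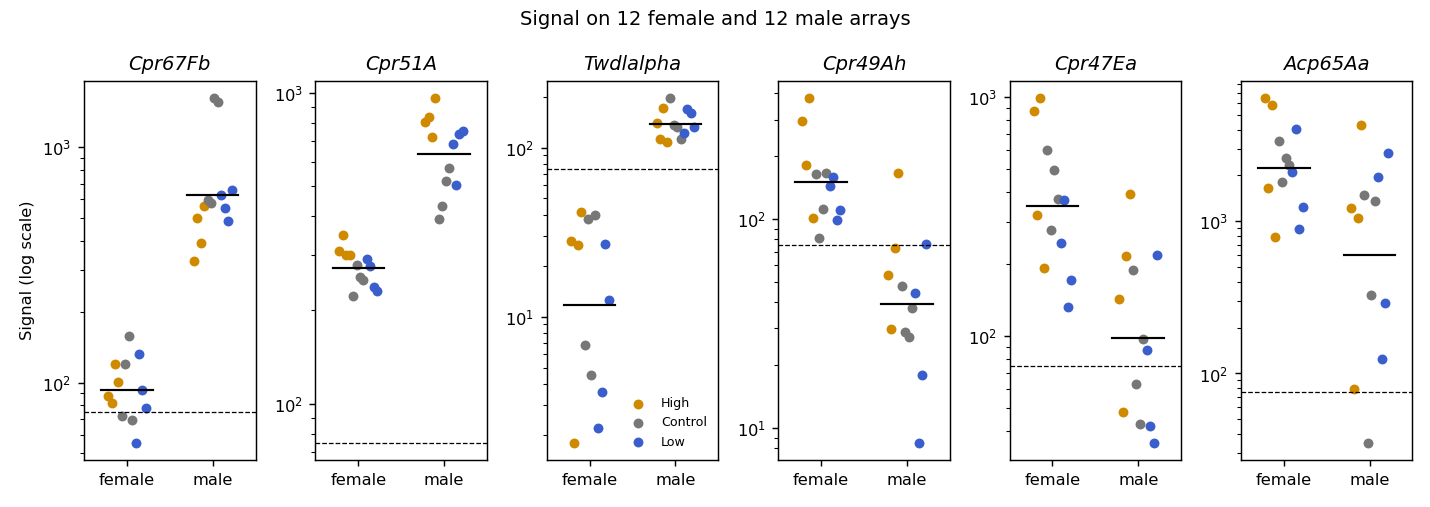
Signal (log scale) on the 12 female and 12 male arrays of Cpr67Fb, Cpr51A, Twdlalpha, Cpr49Ah, Cpr47Ea and Acp65Aa, with 1 point per array colored by selection group, the geometric mean of each sex as a black line and a Signal of 75 dashed. The sexes do not overlap in Cpr67Fb, Cpr51A and Twdlalpha, and Acp65Aa is spread widely within each sex.

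Twdlalpha, a Tweedle gene on X at the end of a run of 4, was detected at a Signal of 75 in males alone. It was at 1.8, 19.6 and 41.4 in females and 108, 134 and 196 in males, so that all 12 male arrays and no female array were at or above 75, and its median over 24 arrays, 74.8, kept it out. With no filter on Signal, limma gave a difference of males and females of 3.56 (SE 0.47, adjusted p = 9.4e-06), in which the female values are low readings whose size is imprecise. Its neighbour TwdlY was tested and had a difference of -0.30 (SE 0.10, adjusted p = 0.0142). Most arrays of 1 sex and not of the other were at or above 75 in 12 genes of the 105, namely Ccp84Ae, Cpr47Eb, Cpr49Ag, Cpr49Ah, Cpr72Eb, Cpr92A, Lcp65Aa and TwdlC in females and Cpr60D, Cpr66Cb, TwdlK and Twdlalpha in males. Such a split around the limit does not by itself show a difference between the sexes, and its share over all probe sets was not counted. Of the tested genes among them only Cpr49Ah was called between the sexes. By limma the difference of males and females was -0.13 (SE 0.18, adjusted p = 0.522) in Cpr92A and -0.27 (SE 0.14, adjusted p = 0.092) in Cpr72Eb.

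Other genes of the cuticle were compared as lists. Of 31 genes for chitin synthesis and chitin matrix enzymes, 28 were on the array and 24 were tested, of which 5 were higher and 0 lower in H than in L, with 2 line effects. The 5 were the chitinase Cht8 at 0.58 (SE 0.08, adjusted p = 0.000146), the chitinase-like growth factors Idgf2 and Idgf4 at 0.38 and 0.38, the chitin deacetylase Cda5 at 0.51, and Gfat1, the first enzyme of the hexosamine pathway that supplies chitin synthesis, at 0.55 (SE 0.08, adjusted p = 0.000357). Not all High lines lay above all Low lines. Idgf2 was at 3017 to 3974 in High line 2 and 3477 to 3824 in Low line 1. Cda5 was at 170 to 276 in High line 1 and 153 to 242 in Low line 1. Cht8 was at 412.5 to 493.5 in Low line 1 and 654 to 871 in Low line 2, against 765.5 to 1024.5 in H lines. In Idgf4 and Gfat1 all H female arrays lay above all L female arrays. Of 25 genes for tanning and pigmentation, 22 were on the array and 14 were tested, with 3 higher and 1 lower in H. Those higher were yellow-h at 0.55 (SE 0.06, adjusted p = 3.59e-05), t (tan), which hydrolyses a beta-alanyl conjugate of dopamine, at 0.27, and stw (straw), a laccase, at 0.51, and the one lower was yellow-d at -0.83 (SE 0.06, adjusted p = 9.4e-07). Of 19 other cuticle and chitin-binding structural proteins, 16 were on the array and 7 were tested, of which obst-E was higher in H at 0.21 (SE 0.07, adjusted p = 0.0499). Its arrays of High line 1, at 361.8 to 448.1, overlapped those of Low line 1, at 377.3 to 467.2. The median differences of H and L over the 3 lists were 0.18, 0.19 and 0.21, against -0.01 over all probe sets. Of all probe sets 7.85% were called higher in H, 7.89% lower and 15.7% in either direction, and 4.76% had a line effect. Among markers of other tissues, 1 of 7 ovary genes (Cp15, at -2.36 (SE 0.45, adjusted p = 0.00284)), 1 of 12 testis genes (dj), 1 of 12 accessory gland genes (Acp98AB) and 0 of 3 yolk protein genes were called between H and L, all lower in H. Acp98AB was called on the mean of both sexes. It read 2.3 to 21.2 in H and 8.0 to 33.6 in L females, all low readings. In males it was at 13933 to 16662.5 in H and 17475 to 22489.5 in L. Within a sex, 2 accessory gland genes were called lower in H females and 0 in H males.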

How the data were processed

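The deposited values were linear Signal intensities, 1 per probe set, that the authors had computed with the MAS5 software from Affymetrix Drosophila GeneChip 2.0 arrays and scaled to a common target on each array. Scanner files were not used here, so background correction could not be varied. The array number limits the precision. Groups, lines, replicates and sexes were taken from the titles in the labels, and 0 columns were left unused.

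The cuticle protein genes and the other gene lists were chosen with earlier results of these data known. A gene was named by its probe set with 1 symbol in the platform annotation. In the text were named genes called among lines or groups, the 5 of highest Signal in each sex, the 5 largest differences called between sexes and between lines, genes near the Signal limit, and neighbours of these. Other genes were named after their values were seen, above all those compared with Acp65Aa.

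Values were tested as log2 Signal with limma 3.58.1 in R 4.3.3, with a mean for each of the 12 combinations of line and sex (12 residual degrees of freedom), over 11439 probe sets whose median Signal reached 75. Benjamini-Hochberg adjusted p-values over all of these were called under 0.001 for line, sex and interaction, as in the study's methods, and under 0.05 for contrasts. The study's factorial analysis of linear Signal was run as an alternative, beside other scalings, filters, thresholds and blocks and each array and line left out. The script was tested on simulated data. The replicate samples were separate collections of flies from 1 line, and p-values measure the spread between such samples. Descriptions were made with Python 3.11.15, pandas 2.3.3 and NumPy 2.4.6.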

Additional observations from a re-analysis of the deposited data

Results flagged for a closer look

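In each group and sex the array farthest from the other 3 was compared with Dixon's 95% critical value for 4 samples, over 126 groups in 21 genes. This marked 6 arrays, and chance marks about 5% of groups. In Cpr72Ec the first male sample of High line 2 read 1717.3 against 862.4 to 927.5 on the other 3 H male arrays, and the first male sample of Control line 2 read 122.9 against 193.5 to 205.7. Both left the order of H above C and L as it was. In Cpr47Eb the first female sample of Control line 2 read 142.2 against 75.8 to 83.3. In Cpr60D the first male sample of High line 2 read 33.5 against 82.0 to 95.9. In Cpr92A the first female sample of Low line 2 read 40.4 against 77.0 to 81.5. In Twdlalpha the second female sample of High line 1 read 1.8 against 26.6 to 41.4. The medians of the last 4 genes over all arrays lay close to the Signal limit of 75.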

How the results depend on the processing

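Each group has 2 lines, and the fit's error holds no spread between them, and counts were lower where it was included. With line as a random block (correlation 0.1756) 2 genes (Cpr72Ec and TwdlT) were called between H and L, 1 (Cpr51A) between H and C, 0 between C and L and 1 between H and L females, and with line means as the samples, with or without the line number as a block, 0 in each of the 3 group comparisons (7 and 6 genes at an unadjusted p under 0.05 between H and L). Neither fit can test line or interaction. For line effects the count was 2, and became 5 with log2(Signal + 50), 1 with no filter, and 5 and 6 at adjusted p under 0.01 and 0.05. Between H and L it was 3, and became 5 with median centring within each sex and 5 with no filter. Over all probe sets the share of calls higher in H was 49.9%, 60.7% with median centring and 38.7% on linear Signal. Between H and L females it was 3, and became 1 on linear Signal, 1 with quantile normalization and 5 with median centring, and between males it was 2, and became 1 with a Signal of at least 150. On linear Signal 1 gene had an interaction. Between the sexes it was 8, and became 5 on linear Signal, 14 with quantile normalization, and 14 and 18 at adjusted p under 0.01 and 0.05. With an array or a line left out, counts were 1 to 3 for line, 2 to 5 for H and L, 2 to 5 for H and C, 0 to 6 for C and L (0 without Control line 1), 1 to 6 and 1 to 3 for H and L females and males, 5 to 10 for the sexes and 3 to 6 for lines of a group. The difference of H and C in Cpr67B ranged from -0.021 (adjusted p = 0.94, without Control line 1) to 0.718, and that of C and L in Cpr72Ec from -0.288 (adjusted p = 0.476, without Low line 1) to 2.61, so both turned their direction. The cause was not tested for any of these. Correlations between the deviations of same-numbered samples lay from -0.257 to 0.256 (66 pairs, 6 over 0.1), and the numbers were not taken to pair samples. In Acp65Aa, however, the higher male sample was replicate 1 in every line 1 and replicate 2 in every line 2. Whether same-numbered samples share a condition was not tested. With the replicate block 3 genes were called between H and L, and line effects were called in Cpr66D and Cpr72Ec.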

Other observations

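Among genes under the Signal limit, limma with no filter called some whose values were low on most arrays. Cpr56F, a Cpr gene, was at 3.8, 6.85 and 39.6 (lowest, median and highest Signal) in females and 25.1, 63 and 100.8 in males, with a difference of males and females of 2.98 (SE 0.25, adjusted p = 8.14e-08). Pcp, named for the pupal cuticle, was at 7.5, 68.9 and 110.2 in females and 3.1, 12.9 and 28.1 in males, with a difference of -2.46 (SE 0.38, adjusted p = 5.03e-05). For Cpr50Ca the difference was 2.43 (SE 0.36, adjusted p = 3.18e-05). Cpr11B and TwdlG were higher in H than in L by 1.49 (SE 0.33, adjusted p = 0.0143) and 1.27 (SE 0.29, adjusted p = 0.0184). These genes were chosen after their values were seen, and a log2 difference of Signals this low is imprecise.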
